A study of Homo sapiens with 6 samples.

Results

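The 10 genes described here encode the transcription factors that direct erythroid and megakaryocytic development: GATA1, GATA2, TAL1, KLF1, NFE2, LMO2, LYL1, RUNX1, FLI1 and GFI1B. They were taken as the rows of the read count table whose Ensembl identifier maps to one of these symbols, 10 rows of 61661, and each symbol had 1 row. Of the 10 genes, 9 passed the filter on low counts, along with 17686 genes in all, and FLI1 did not. GATA1 and GATA2 bind GATA motifs. With TAL1 or LYL1, the E proteins, LMO2 and the adaptor LDB1, they form a multiprotein complex on erythroid enhancers. GATA2 marks earlier progenitors and GATA1 more mature erythroid and megakaryocytic cells, KLF1 favors the erythroid and FLI1 the megakaryocytic fate, and RUNX1, NFE2 and GFI1B act in both lineages or in platelet formation.

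RNA was sequenced from K562, a human cell line established from blast-phase chronic myeloid leukemia, with erythroid and megakaryocytic features. The shCTR cells (genotype WT in the labels) carried a lentiviral nonsense sequence, the shMETTL3 cells an shRNA against METTL3, the catalytic subunit of the methyltransferase complex that writes N6-methyladenosine (m6A) on mRNA, and the shMETTL14 cells had a knockdown of METTL14, its partner subunit, whose shRNA the sources used here do not describe. Per the study's methods, the lentiviral vector carried GFP and puromycin resistance and stable lines were selected with puromycin. There were 2 libraries per group, all from cells in logarithmic growth in RPMI1640 with fetal bovine serum, and all enriched for polyadenylated RNA. The labels give pleural effusion as the source tissue of the line. Nothing states that the 2 libraries of a group came from separate cultures, so p-values measure only the spread between these libraries, which may be technical. The comparisons ask how the level of each factor differs from shCTR in either knockdown, and between the knockdowns.

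Library totals ran from 19292574 to 20115304 reads. METTL3 was at 90.5 and 90.2 CPM in shCTR, 52.5 and 46.7 CPM in shMETTL3 and 88.1 and 76.4 CPM in shMETTL14 libraries. METTL14 was at 33.2 and 34.2, 38.3 and 35.4, and 19.1 and 20.6 CPM in the same order. Each targeted gene was therefore lowest in the libraries labelled with its knockdown. CPM is the count scaled to library size with TMM factors. All 10 genes of a K562 marker list (among them globins, TFRC, BCR and ABL1) were above 3 reads in every library. The summed level of 8 lymphoid markers was 6.07 to 9.92 CPM. The shCTR replicates were the least alike (chi-square averaged over genes 5.03, against 2.90 for shMETTL3 and 2.45 for shMETTL14; counting noise gives 1).

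Promoter sequence is shown for the 4 factors whose window holds a GATA motif, since GATA1 and GATA2 are themselves among the genes measured. RefSeq windows, from 250 bases before to 50 bases after a gene start on GRCh38.p14, were found for 7 of the 10 genes, with 10 windows in all, and not for NFE2, LMO2 and FLI1. Both strands were searched for the letters AGATAA and the variant form AGATAG, and for the letters TGATAA and the variant form TGATAG. Matches were found for TAL1, KLF1, LYL1 and GFI1B, in both windows of GFI1B. Of all 35116 windows, counted singly and not by gene, 25% hold one. The 30 bases around 1 match of each gene follow, in the gene's direction, with the match in capitals.
KLF1: ccttgctttgccTTATCAgaggctgcagcc
LYL1: cagccaggctccTTATCAggcgcggccagg
GFI1B: cctggaaagtttTGATAAgcaaatacggct
TAL1: cgcggcagtgccTTATCTctgcggcgcaca
The KLF1 match begins 66 bases before the start (chr19:12887250-12887279, minus strand), the LYL1 match 27 bases before (chr19:13102868-13102897, minus strand), the GFI1B match 116 bases before (chr9:132978566-132978595, plus strand) and the TAL1 match 35 bases before (chr1:47232353-47232382, minus strand). GFI1B has 2 windows, and the match shown belongs to a start inside the annotated gene, which runs from 132944000 to 132991687. The LYL1 match also lies inside its annotated gene, which runs from 13099033 to 13103161. TGATAA (on the other strand written as TTATCA) is the match in KLF1, LYL1 and GFI1B. The windows of GATA1, GATA2 and RUNX1 held none of these letters. The RUNX letters TGTGGT, or the variant form TGCGGT, occur 4 times in a TAL1 window and in no other window of the 7 genes (19.6% of all windows), and the ETS letters CCGGAAG, or the variant form CAGGAAG, occur once, in GATA2 (21.8% of all windows). A match describes these letters only and does not show binding.

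Reads were counted for 9 of the 10 factors. Per kilobase of merged exons, GATA1 was highest in shCTR cells, at 185 ± 16.6 CPM per kb (SD, n = 2). NFE2 followed at 94.0 ± 5.90 and KLF1 at 88.3 ± 12.2 CPM per kb, and the libraries of these neighbours overlapped. GATA2 was at 68.9 ± 3.66, LMO2 at 62.1 ± 1.16 and LYL1 at 53.6 ± 7.08 CPM per kb, and these 3 did not overlap with the gene next in order. TAL1 (23.0 ± 0.942), GFI1B (11.4 ± 1.51) and RUNX1 (4.35 ± 0.0238) were lower. The order in the middle depended on the length used: with the longest transcript in place of merged exons, NFE2 was at 127 and LYL1 at 108 CPM per kb, and LYL1 stood above GATA2, KLF1 and LMO2. The longest annotated LYL1 transcript has 1 exon of 1547 bases, beside 3119 bases of merged exons, so the place of LYL1 rests on that transcript.

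**Figure D1:**
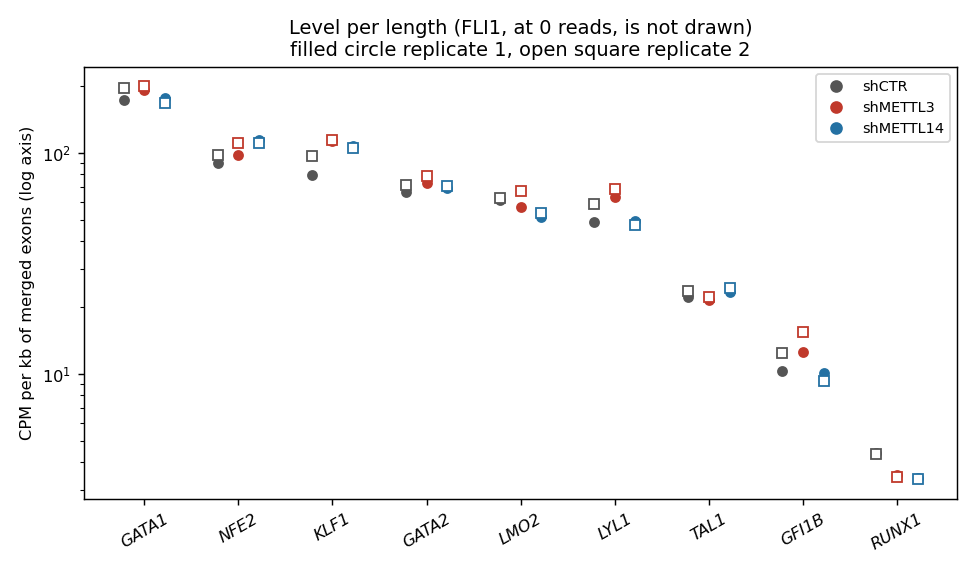
Level per length of the 9 expressed factors in each library, in TMM-scaled CPM per kb of merged exons on a log axis, with colors for the 3 groups, circles for replicate 1 and squares for replicate 2. GATA1 is highest in shCTR at 185 CPM per kb and RUNX1 lowest at 4.35 CPM per kb, and the groups lie close together for every gene beside this range.

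FLI1 (chromosome 11, from 128686535 to 128813267), an ETS factor of the megakaryocytic lineage, had 0 reads in all 6 libraries. A count of 0 allows up to 3 reads, or 0.150 to 0.157 CPM depending on the library. Against that floor, KLF1, its antagonist at lineage choice, had at least 846-fold to at least 1230-fold more reads within a library. FLI1 was not detected at this depth, and no difference between groups could be measured. Whether the counting step could have lost its reads was not settled, and the 0 and these bounds hold only for the table as deposited. The antisense gene SENCR, which overlaps FLI1 exons, had 0 to 1 read.

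In shMETTL3 cells, KLF1, LYL1 and GFI1B were higher and RUNX1 was lower than in shCTR. These were 4 of the 9 tested factors, while 16.5% of all tested genes were called in this comparison (8.73% higher and 7.73% lower). In shMETTL14 cells, KLF1 and NFE2 were higher and LMO2 and RUNX1 lower, again 4 of 9, beside 6.69% of all genes (3.43% higher and 3.26% lower). Called means an adjusted p under 0.05 over all genes in edgeR's quasi-likelihood test. The balance of all calls depended on scaling: 1544 higher and 1368 lower in shMETTL3 became 2158 and 858 with library size alone, and 607 and 577 in shMETTL14 became 743 and 443. The changes were small: log2 fold changes ran from -0.33 to 0.36 in shMETTL3 and from -0.37 to 0.27 in shMETTL14 cells. The median absolute log2 fold change of the 9 factors was 0.15 and 0.24, beside 0.18 and 0.14 for all genes tested. Both comparisons use the same shCTR libraries. The libraries of the compared groups did not overlap for 5 of the 9 tested factors in either comparison. Of all tested genes, 56% did not overlap in shMETTL3 and 48.9% in shMETTL14. Between the knockdowns, 8 of the 9 tested factors did not overlap, beside 56.7% of all tested genes. Such separation is therefore common among all genes. The counts of factors called depended on single libraries: in shMETTL3 it was 2 without shCTR replicate 1 or without shMETTL3 replicate 2, and 7 without shCTR replicate 2. In shMETTL14 it was 1 without shMETTL14 replicate 1 and 0 by edgeR without shMETTL14 replicate 2, where 2 factors were higher and 2 lower at an unadjusted p under 0.05. In bulk RNA, fewer cells of a type and less RNA per cell cannot be told apart, and TMM gives each change relative to the other genes of the library.

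**Figure D2:**
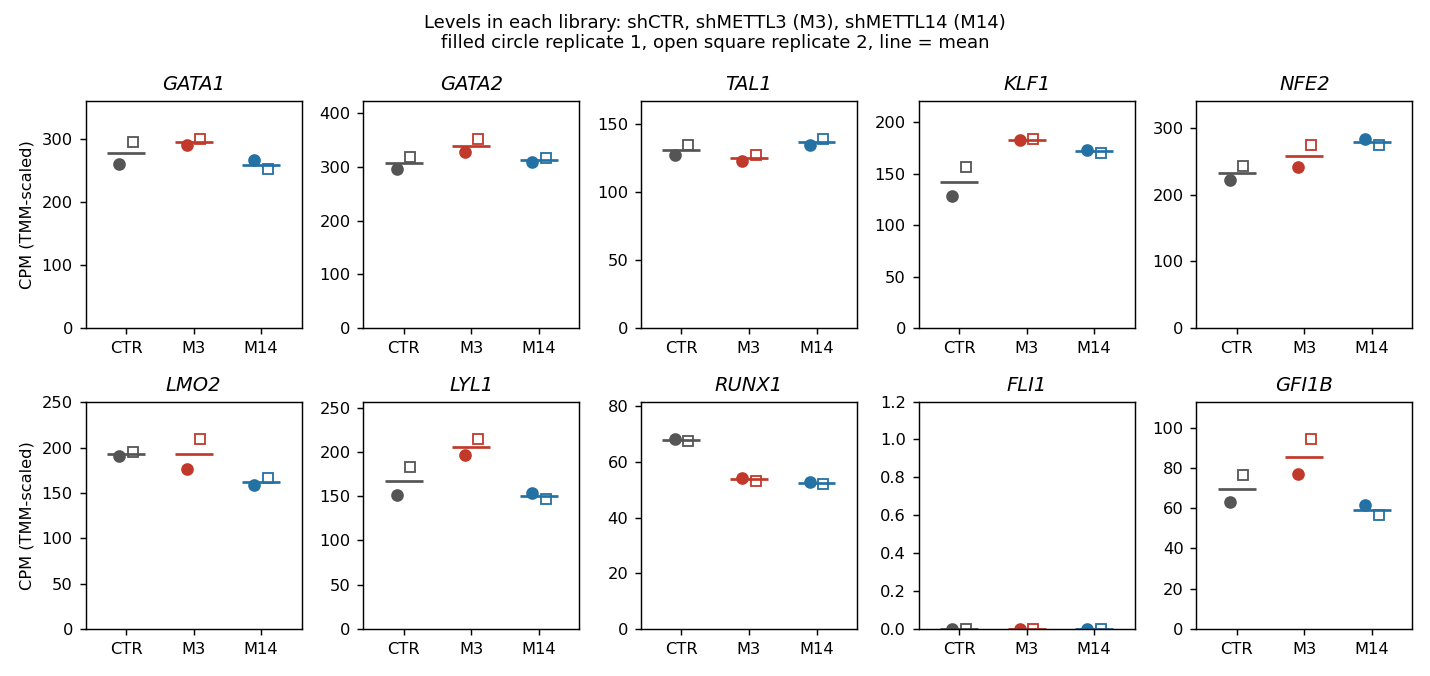
TMM-scaled CPM of each factor in every library, with circles for replicate 1, squares for replicate 2 and a line at the mean, each panel starting at 0. RUNX1 is at 67.5 to 68.1 CPM in shCTR and at 52.1 to 54.4 CPM in the 4 knockdown libraries, and FLI1 is at 0 throughout.

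RUNX1 (chromosome 21, from 34787801 to 36004667, minus strand), a factor needed for blood stem cell formation and megakaryocyte maturation, was lower in both knockdowns. Its level was 68.1 and 67.5 CPM in shCTR, 54.4 and 53.3 CPM in shMETTL3, and 52.8 and 52.1 CPM in shMETTL14 libraries. All 4 knockdown libraries lay below both shCTR libraries, and the replicates were close together. The log2 fold change was -0.33 in shMETTL3 (standard error 0.0665, adjusted p = 0.00181, edgeR quasi-likelihood test, Benjamini-Hochberg adjusted) and -0.37 in shMETTL14 (standard error 0.0667, adjusted p = 0.00158, same edgeR test). The knockdowns did not differ detectably from each other in RUNX1, with a difference of 0.04 and a 95% interval from -0.11 to 0.18. When single libraries were left out, the change lay between -0.35 and -0.32 in shMETTL3 and between -0.38 and -0.36 in shMETTL14, and the only call lost was that in shMETTL14 without shMETTL14 replicate 2.

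KLF1 (chromosome 19, from 12884422 to 12887199, minus strand), the activator of globin and red cell membrane genes, was higher in both knockdowns. It was at 128 and 156 CPM in shCTR, 182 and 184 CPM in shMETTL3, and 173 and 170 CPM in shMETTL14 libraries. The shCTR libraries lay apart from each other and below all 4 knockdown libraries. The log2 fold change was 0.36 in shMETTL3 (standard error 0.0745, adjusted p = 0.00221, edgeR quasi-likelihood test, Benjamini-Hochberg adjusted) and 0.27 in shMETTL14 (standard error 0.0747, adjusted p = 0.0330, same edgeR test). The difference between the knockdowns was 0.09, with a 95% interval from -0.06 to 0.25. The size depended on shCTR replicate 1, the lower control library: without it the change was 0.23 in shMETTL3, still called, and 0.14 in shMETTL14, no longer called, while without shCTR replicate 2 it was 0.51 and 0.42. The shMETTL3 call was kept in all 6 fits with 1 library left out, and the shMETTL14 call in 1 of them, without shCTR replicate 2, and not without the filter on low counts. With a trend on GC content and length removed from each library, the change in shMETTL3 was 0.22 and still called; the longest KLF1 transcript is 65.7% GC.

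NFE2 (chromosome 12, from 54292111 to 54301121, minus strand), the subunit that pairs with small MAF proteins on globin and platelet genes, was higher in shMETTL14 cells. Its level was 222 and 242 CPM in shCTR, 241 and 275 CPM in shMETTL3, and 284 and 274 CPM in shMETTL14 libraries. Both shMETTL14 libraries lay above shCTR, and the shMETTL3 libraries overlapped with shCTR. The log2 fold change was 0.27 in shMETTL14 (standard error 0.0679, adjusted p = 0.0218, edgeR quasi-likelihood test, Benjamini-Hochberg adjusted) and 0.15 in shMETTL3, which was not called (adjusted p = 0.134, same edgeR test). The knockdowns differed by -0.11 (95% interval -0.25 to 0.03), so a difference between them was not shown. The shMETTL14 call was lost without shCTR replicate 1, at a log2 fold change of 0.20, and without either shMETTL14 library.

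LYL1 (chromosome 19, from 13099033 to 13103161, minus strand), a basic helix-loop-helix factor closely related to TAL1, was higher in shMETTL3 cells. It was at 152 and 183 CPM in shCTR, 197 and 214 CPM in shMETTL3, and 154 and 147 CPM in shMETTL14 libraries. Both shMETTL3 libraries lay above all others, and the shMETTL14 libraries overlapped with shCTR. The log2 fold change was 0.30 in shMETTL3 (standard error 0.0761, adjusted p = 0.0108, edgeR quasi-likelihood test, Benjamini-Hochberg adjusted) and -0.16 in shMETTL14 (adjusted p = 0.259, same edgeR test). The shMETTL3 call was lost without shCTR replicate 1, at 0.17, and without shMETTL3 replicate 2, at 0.24, and the value in shMETTL14 was -0.28 and called without shCTR replicate 1 but -0.015 without shCTR replicate 2.

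GFI1B (chromosome 9, from 132944000 to 132991687), a repressor needed for red cells and platelets, showed a similar order. Its level was 63.2 and 76.3 CPM in shCTR, 76.8 and 94.1 CPM in shMETTL3, and 61.6 and 56.6 CPM in shMETTL14 libraries. The shMETTL3 libraries lay above and the shMETTL14 libraries below those of shCTR, but the gaps were small beside the spread in shCTR. The log2 fold change was 0.29 in shMETTL3 (standard error 0.0926, adjusted p = 0.0346, edgeR quasi-likelihood test, Benjamini-Hochberg adjusted) and -0.24 in shMETTL14 (standard error 0.0948, adjusted p = 0.150, same edgeR test). The shMETTL3 call was kept in 2 of the 6 fits with 1 library left out. It was lost without shCTR replicate 1 (0.16), without shMETTL3 replicate 2 (0.14) and without either shMETTL14 library, and it was not made by DESeq2, without the filter on low counts or with the 2 compared groups only. The shMETTL14 value was -0.37 and called without shCTR replicate 1, and -0.099 and not called without shCTR replicate 2. TSC1, on the other strand, overlaps 5.72% of GFI1B exon bases and had 1293 to 1465 reads; the library protocol does not describe strand marking, so reads in the overlap cannot be told apart.

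LMO2 (chromosome 11, from 33858576 to 33892289, minus strand), the bridging LIM protein of the TAL1 complex, was lower in shMETTL14 cells. It was at 190 and 196 CPM in shCTR, 177 and 209 CPM in shMETTL3, and 159 and 166 CPM in shMETTL14 libraries. Both shMETTL14 libraries lay below all others, and the shMETTL3 libraries lay on either side of shCTR. The log2 fold change was -0.25 in shMETTL14 (standard error 0.0714, adjusted p = 0.0411, edgeR quasi-likelihood test, Benjamini-Hochberg adjusted), kept in 2 of the 6 fits with 1 library left out. It was lost without either shCTR library, without either shMETTL14 library, with scaling by library size alone and without the filter on low counts. In shMETTL3 it was -0.00082 (adjusted p = 0.994, same edgeR test), and its sign changed with the scaling.

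The 3 remaining factors, GATA1, GATA2 and TAL1, were not called in either knockdown. GATA1 (chromosome X, from 48786554 to 48794311), the main erythroid GATA factor, was at 260 and 295 CPM in shCTR, 290 and 301 CPM in shMETTL3, and 266 and 252 CPM in shMETTL14 libraries. Its log2 fold change was 0.09 (95% interval -0.05 to 0.23) in shMETTL3 and -0.10 (-0.24 to 0.04) in shMETTL14, and libraries overlapped with shCTR in both. GATA2 (chromosome 3, from 128479427 to 128493185), the progenitor GATA factor, was at 296 and 319 CPM in shCTR, 327 and 352 CPM in shMETTL3, and 309 and 316 CPM in shMETTL14 libraries. Both shMETTL3 libraries lay above shCTR, with a log2 fold change of 0.14 (95% interval 0.02 to 0.27) that missed the threshold (adjusted p = 0.118, edgeR quasi-likelihood test, Benjamini-Hochberg adjusted), and the value in shMETTL14 was 0.03 (-0.10 to 0.15). TAL1 (chromosome 1, from 47216290 to 47232220), the helix-loop-helix factor at the center of the complex, was at 127 and 135 CPM in shCTR, 123 and 127 CPM in shMETTL3, and 134 and 139 CPM in shMETTL14 libraries. Its log2 fold changes were -0.07 (-0.20 to 0.07) and 0.06 (-0.07 to 0.19), so changes beyond these bounds were not seen. An antisense gene, AL135960.1, overlaps 14.8% of TAL1 exon bases and had 112 to 162 reads. GATA2 in shMETTL3 was 0.011 with the GC and length trend removed and 0.087 without shCTR replicate 1, and GATA1 was 0.0041 and -0.00075. Without shCTR replicate 2, GATA1 (0.18), GATA2 (0.20) and NFE2 (0.22) were also called higher in shMETTL3 cells.

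**Figure D3:**
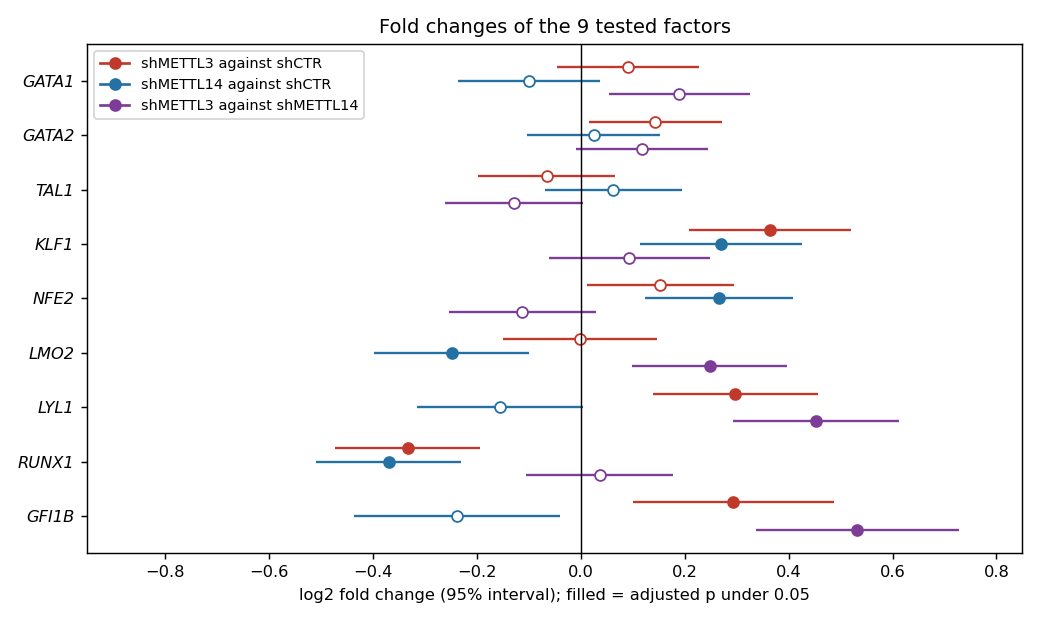
Log2 fold change of the 9 tested factors with its 95% interval in the 3 comparisons, filled where the adjusted p is under 0.05. RUNX1 lies below 0 in both knockdowns (-0.33 and -0.37) and KLF1 above (0.36 and 0.27), while LYL1 (0.45) and GFI1B (0.53) are higher in shMETTL3 than in shMETTL14 cells.

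Compared with each other, shMETTL3 cells had higher LYL1, GFI1B and LMO2 than shMETTL14 cells, 3 of the 9 tested factors. None was lower by edgeR, also at an unadjusted p under 0.05, or by DESeq2, but with the GC and length trend removed TAL1 was called lower (-0.17) and GATA1 higher (0.14). In this comparison 12.1% of all genes passed, 6.65% higher and 5.49% lower in shMETTL3 (1177 and 971 genes, or 1399 and 754 with library size alone). The difference was 0.45 on the log2 scale for LYL1 (standard error 0.0763, adjusted p = 4.16e-04, edgeR quasi-likelihood test, Benjamini-Hochberg adjusted), 0.53 for GFI1B (standard error 0.0936, adjusted p = 6.23e-04, same edgeR test) and 0.25 for LMO2 (standard error 0.0714, adjusted p = 0.0264, same edgeR test). The LYL1 and GFI1B differences stayed called with any 1 library left out, at 0.40 to 0.51 and 0.38 to 0.67. The LMO2 difference was lost in 3 of 6 such fits and was 0.13 without shMETTL3 replicate 2. GATA1 was 0.19 higher in shMETTL3 (95% interval 0.05 to 0.33) and missed the threshold (adjusted p = 0.0650, same edgeR test). It was called when 1 of the shCTR libraries, whichever it was, was left out. Under the 7 other settings it ran from 0.14 to 0.22 and was called in 4. LYL1, GFI1B and GATA1 also had the most alike profiles among the factors, with a Pearson r of 0.97 between LYL1 and GFI1B and 0.96 between GATA1 and LYL1, as a description over 6 libraries that share their depth and scaling.

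Ratios within a library do not depend on the scaling between libraries. The ratio of TAL1 to LYL1 reads was 0.838 and 0.736 in shCTR, 0.624 and 0.594 in shMETTL3, and 0.873 and 0.949 in shMETTL14 libraries. The groups did not overlap: TAL1 was lowest against its relative in shMETTL3 and highest in shMETTL14 cells. The ratio of GATA1 to GATA2 reads was 0.879 and 0.925 in shCTR, 0.889 and 0.853 in shMETTL3, and 0.861 and 0.797 in shMETTL14 libraries, with shMETTL3 overlapping both other groups. With 2 libraries against 2, a permutation test cannot give a two-sided p below 0.333, so the ratios were not tested.

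**Figure D4:**
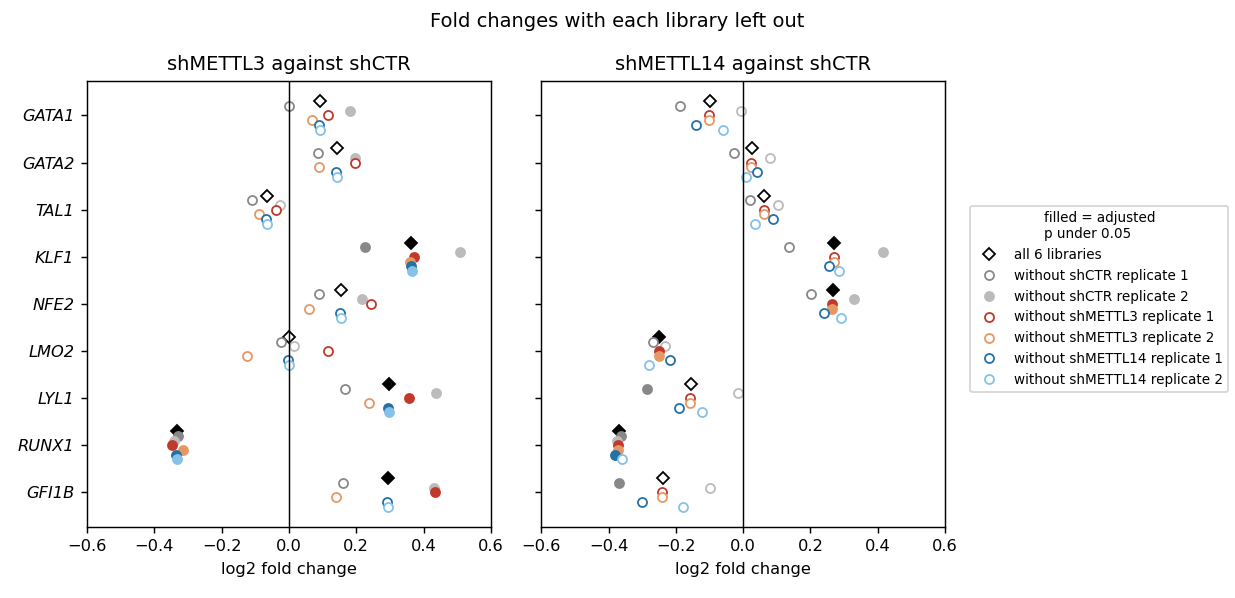
Log2 fold change of the 9 tested factors with all 6 libraries (diamonds) and with each library left out (circles), filled where the adjusted p is under 0.05. RUNX1 stays between -0.38 and -0.32 in both comparisons, while GFI1B in shMETTL3 moves from 0.14 to 0.43.

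The longest annotated transcripts were searched for GGACT, the DNA letters of the core m6A motif GGACU. KLF1 had 5 copies, or 3.10 per kb, LYL1 3 copies (1.94 per kb), RUNX1 8 copies (1.10 per kb) and NFE2 none, beside a median of 0.909 per kb over 16660 tested genes with a transcript. KLF1 and NFE2, both called higher in shMETTL14, thus had the highest and the lowest density of the 10. The LYL1 density rests on an annotated transcript with 1 exon. A motif is not a measured methylation site, and m6A was not measured in these libraries.

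Among 25 partners and cofactors of these factors, all tested, 3 were called higher and 4 lower in shMETTL3, and 1 higher and 2 lower in shMETTL14 cells. These were 12% higher and 16% lower in shMETTL3 and 4% higher and 8% lower in shMETTL14, to be read, as for the lists that follow, beside 8.73% and 7.73% of all tested genes in shMETTL3 and 3.43% and 3.26% in shMETTL14. The median log2 fold changes were 0.05 and 0.03, beside 0.00 for all genes in both comparisons. In shMETTL3, ZFPM1 (FOG1), the obligate GATA1 cofactor, rose by 0.53 on the log2 scale. ID1, an inhibitor of E proteins, rose by 0.54, and CBFA2T3 (ETO2), a corepressor in the TAL1 complex, rose by 0.36. SSBP2, a stabilizer of LDB1, fell by 0.30 and HDAC1, a histone deacetylase, by 0.23. In shMETTL14, RCOR1, the corepressor that GFI1B recruits, fell by 0.27 and MAFG, a partner of NFE2, by 0.20, while ID3 rose by 0.59. ID3 had only 84 to 149 reads, and its value in shMETTL3 was 0.45, not called. The direction of this list was not stable to scaling: with library size alone, 5 were called higher and 1 lower in shMETTL3. With the GC and length trend removed, 3 were higher and 8 lower. The number called in shMETTL3 was 12 without shCTR replicate 2, 4 without shMETTL3 replicate 1 and 1 without shMETTL3 replicate 2. In shMETTL14 it was 6 without shCTR replicate 2 and at most 1 without any other library.

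Of 28 relatives from the same families, 23 were tested. In shMETTL3 cells 7 passed upward and 1 downward, with a median log2 fold change of 0.29, and in shMETTL14, 1 was higher and none lower by edgeR or DESeq2 (5 and 3 at an unadjusted p under 0.05), with a median of 0.04. The shares were 30.4% higher and 4.35% lower in shMETTL3, and 4.35% higher in shMETTL14, near that of all genes. KLF10 (0.55), KLF13 (0.40), KLF3 (0.38), a repressor that KLF1 activates, and NFE2L1 (0.29) rose in shMETTL3. SPI1 (PU.1), the myeloid ETS factor that antagonizes GATA1, fell by 0.85, from 15.0 to 8.35 CPM. KLF3 also rose in shMETTL14, by 0.28. With library size alone the shMETTL3 counts were the same, and without shCTR replicate 1 they were 5 higher and 1 lower. In shMETTL14, 2 were called without shCTR replicate 2, and the KLF3 call was lost without either shMETTL14 library.

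**Figure D5:**
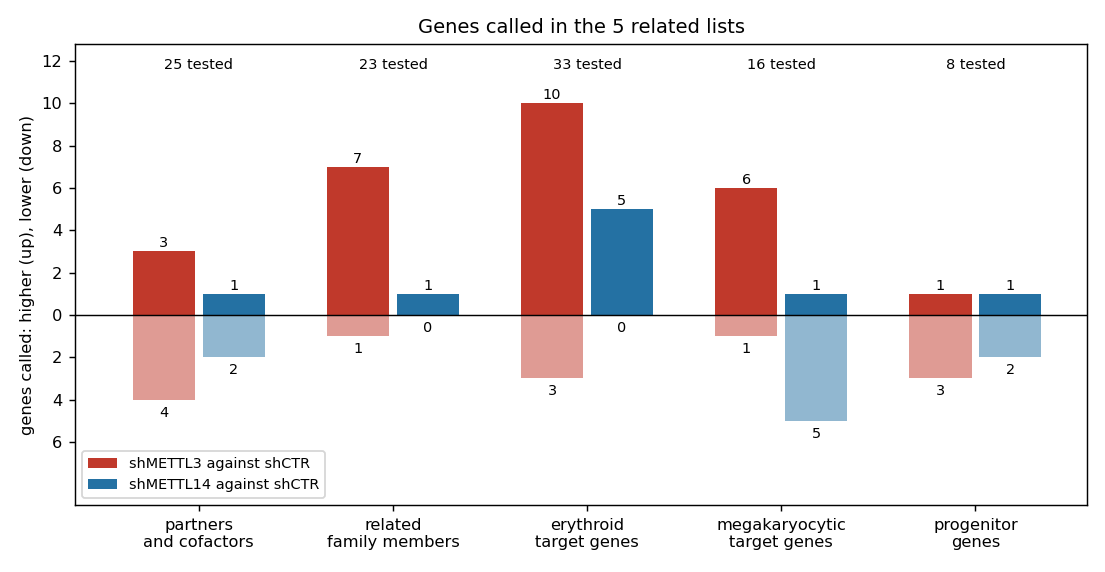
Number of genes called higher (bars up) and lower (bars down, lighter) in each of 5 gene lists for shMETTL3 and shMETTL14 against shCTR, with the number tested above. In shMETTL3, 10 of 33 erythroid and 6 of 16 megakaryocytic genes were higher, and in shMETTL14, 5 of 16 megakaryocytic genes were lower, beside 8.73% of all tested genes higher in shMETTL3 and 3.26% lower in shMETTL14. The 6 include ITGB3, at only 1 to 14 reads.

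Among erythroid target genes, 33 of 34 were tested. In shMETTL3, 10 were called higher and 3 lower, with a median log2 fold change of 0.09, and in shMETTL14, 5 were higher and none lower by edgeR or DESeq2 (6 and 4 at an unadjusted p under 0.05), with a median of 0.06. The shares were 30.3% higher and 9.09% lower in shMETTL3, the latter near that of all genes, and 15.2% higher in shMETTL14. ALAS2, the erythroid enzyme that starts heme synthesis, rose from 15.0 CPM to 51.3 CPM in shMETTL3 (1.77 on the log2 scale) and 34.1 CPM in shMETTL14 (1.19). HBE1, the embryonic globin that K562 cells express, rose by 0.96 and 0.41. BCAM, a red cell adhesion molecule, rose by 0.89 and TSPAN33 by 2.08 in shMETTL3, while TFR2, a transferrin receptor that associates with the EPO receptor, fell by 0.52. EPOR, the erythropoietin receptor, rose in both, by 0.36 in shMETTL3 and 0.40 in shMETTL14. In shMETTL14, SPTB (0.25) and ANK1 (0.20), proteins of the red cell skeleton, rose, and ANK1 ran from 0.16 to 0.25 with 1 library left out. The K562 marker list, which shares 8 genes with the erythroid list, summed to 1660 to 1708 CPM in shCTR, 1854 to 1870 CPM in shMETTL3 and 1673 to 1711 CPM in shMETTL14. The part of the cells' overall erythroid state in the KLF1 result was not tested. Without shCTR replicate 1, 9 were higher and 2 lower in shMETTL3, and 3 higher and 1 lower in shMETTL14. In shMETTL3, 7 were higher and 1 lower without shMETTL3 replicate 2, and 10 higher and 6 lower without shCTR replicate 2. In shMETTL14, 5 were higher and 4 lower without shCTR replicate 2, so the split rested on that library, and 3 and 2 were called without shMETTL14 replicate 1 and 2.

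Of 28 megakaryocytic genes, 16 were tested. In shMETTL3, 6 were called higher and 1 lower (median 0.18), and in shMETTL14, 1 higher and 5 lower (median -0.11). The shares were 37.5% higher and 6.25% lower in shMETTL3, and 6.25% higher and 31.2% lower in shMETTL14. Directly compared, 6.65% of all tested genes were higher in shMETTL3 than in shMETTL14 and 5.49% were lower. Of the 16 megakaryocytic genes, 7 (43.8%) were higher and none lower by edgeR or DESeq2 (8 and 1 at an unadjusted p under 0.05, median 0.42). The count was 4 without shMETTL3 replicate 1 or without either shMETTL14 library, and 4 by DESeq2. TUBB1, the platelet tubulin and a target of NFE2, rose by 1.46 in shMETTL3 and 0.82 in shMETTL14. ITGA2B, the platelet integrin subunit, rose by 0.78 in shMETTL3, and NRGN by 0.61. ITGB3 was counted among the genes higher in shMETTL3 than in shCTR and than in shMETTL14. It had only 1 to 14 reads, with means of 0.206 CPM in shCTR, 0.705 CPM in shMETTL3 and 0.051 CPM in shMETTL14. It passed the filter on low counts only through shMETTL3, where it was highest, so its calls give these counts no support. THBS1, a platelet granule protein, was at 17.6 CPM in shCTR, 27.7 CPM in shMETTL3 and 8.56 CPM in shMETTL14, a rise of 0.65 and a log2 fold change of -1.04. VCL, a cytoskeletal protein, fell in both, by 0.38 and 0.36, and RAB27B (-0.88) and RGS18 (-1.33) were lower in shMETTL14. Without shCTR replicate 1, the counts were 4 higher and 1 lower in shMETTL3 and 1 higher and 5 lower in shMETTL14. DESeq2 called 3 higher and 1 lower in shMETTL3, as did edgeR without shMETTL3 replicate 2.

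Of 13 progenitor genes, 8 were tested. KIT, the stem cell factor receptor, fell by 1.00 in shMETTL3 and 0.54 in shMETTL14, and MYB, which supports proliferation of progenitors, by 0.29 and 0.26. MEIS1 fell by 0.79 and HLF rose by 1.02 in shMETTL3, and HHEX rose by 0.28 in shMETTL14. HLF had only 16 to 48 reads, and its change ran from 0.76 to 1.31 with 1 library left out. The counts were 1 higher and 3 lower in shMETTL3, and 1 higher and 2 lower in shMETTL14, of only 8 genes. That is 12.5% higher and 37.5% lower in shMETTL3, and 12.5% and 25% in shMETTL14. Without shCTR replicate 1, 1 was called in shMETTL14, and without shMETTL3 replicate 2, 2 were called in shMETTL3. The shMETTL14 calls were lost without either shMETTL14 library.

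Of 9 monocyte and granulocyte markers, 6 were at 3 reads or fewer in every library, and only LYZ (310 to 1273 reads) and ITGAM (8 to 17 reads) were above 3 in every library. The summed level of the 9 was 43.1 to 44.7 CPM in shCTR, 16.2 to 17.5 CPM in shMETTL3 and 60.9 to 66.4 CPM in shMETTL14. LYZ, the gene for lysozyme, made up most of it. The lymphoid sum was 6.07 to 6.63 CPM in shCTR, 9.06 to 9.92 CPM in shMETTL3 and 6.77 to 7.40 CPM in shMETTL14. Of the 8 lymphoid markers, 3 were at 3 reads or fewer in every library. The monocyte sum moved opposite to LYL1 and GFI1B between the knockdowns, the lymphoid sum with them, and their part in those differences was not tested.

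By Pearson r of log2 CPM over the 6 libraries among 9960 genes, the profiles most like those of the called factors were AKT1, H4C9 and ALKBH5 for KLF1 (r = 0.997 to 0.999), ULK1, TSHZ1 and C21orf58 for NFE2, and C1orf109, ANKRD40 and NDFIP1 for LMO2. For LYL1 they were TSPAN32, EVI5L and SLC35F6, for RUNX1 PSMA4, LETMD1 and VAPA, and for GFI1B NBR2, BCAS2 and TLCD3A. Over 6 libraries, with 9960 genes to choose from, the highest r lay between 0.985 (LMO2) and 0.999 (KLF1) for these 6 factors, so the names describe profiles and nothing more.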

How the data were processed

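Whole-number counts of reads per gene for 61661 identifiers were deposited by the authors, without normalization, for 6 libraries (2 per group). Per the labels, HTSeq 0.6.1 and hg38 were used; the aligner, annotation and strand setting are not given in the sources used here. Of the identifiers, 986 were added by the authors without a gene name (0.635% to 0.703% of reads) and stayed in the totals. Symbols came from a gene name table, and positions, lengths, GC content and overlaps from GENCODE release 29. Groups and replicate numbers came from the labels.

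The test was edgeR 4.0.16 in R 4.3.3 (genes kept by filterByExpr at minimum count 10, TMM, quasi-likelihood test, 1 fit of 3 groups, Benjamini-Hochberg adjustment, threshold 0.05). Up to 3 reads was the floor, and it and the intervals cover counting error or the spread between libraries only. The alternatives were DESeq2 1.42.0, DESeq2 size factors, library size alone, no filter, a replicate block, a fit without the third group, a GC and length trend removed per library (mgcv 1.9.3), each library left out in turn, and another length for levels; list counts were put through them after seeing the data. The steps were tested on simulated data. The genes and lists were chosen with earlier results of these data known. Named were all 10 factors, METTL3 and METTL14, and up to 5 called genes per list and knockdown in order of adjusted p. The 3 most alike profiles of each called factor were named too. The overlapping genes AL135960.1, SENCR and TSC1, the markers, and ITGB3 for its low reads, were named as checks. Some marker genes are not reported here by name.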

Additional observations from a re-analysis of the deposited data

Results flagged for a closer look

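For 3 factors, the effects of the 2 knockdowns differed in the direct test of shMETTL3 against shMETTL14 (edgeR's quasi-likelihood test). The difference on the log2 scale was 0.45 for LYL1 and 0.53 for GFI1B. Against shCTR, both were called higher in shMETTL3 by edgeR, though DESeq2 did not call GFI1B. With 1 library left out, these rises ran from 0.17 to 0.44 for LYL1 and from 0.14 to 0.43 for GFI1B. Their values in shMETTL14, -0.16 and -0.24, did not pass the threshold. For LMO2 the difference was 0.25, with a fall in shMETTL14 and a value near 0 in shMETTL3. That difference ran from 0.13 to 0.37 with 1 library left out.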

How the results depend on the processing

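Of 351 recomputed log2 fold changes of the factors, 302 kept their direction and side of the threshold, 29 lost the call, 14 gained it and 6 changed sign, all in values that were not called. The sign changes were in LMO2 in shMETTL3 cells with library size alone (0.055), without shCTR replicate 2 (0.02) and without shMETTL3 replicate 1 (0.12; range with 1 library left out -0.12 to 0.12), GATA1 in shMETTL3 without shCTR replicate 1 (-0.00075; range to 0.18), and GATA2 in shMETTL14 with the GC and length trend removed (-0.023) and without shCTR replicate 1 (range -0.028 to 0.079). DESeq2 called 1752, 713 and 1243 genes in shMETTL3, in shMETTL14 and between the knockdowns, against 2912, 1184 and 2148 by edgeR. Without the filter on low counts, 766 genes and 2 factors were called in shMETTL14. With the GC and length trend removed, 5 factors differed between the knockdowns, with GATA1 (0.14) and TAL1 (-0.17) added. With 1 library left out, the genes called ran from 1102 to 3569 in shMETTL3, from 341 to 1913 in shMETTL14 and from 942 to 2953 between the knockdowns, and the factors called from 2 to 7, from 0 to 3 and from 2 to 4; the lowest gene counts came without a library of a compared knockdown group, whose lone library was taken to vary like the others. Same-numbered replicates did not deviate together (correlations 0.06, 0.01 and -0.02). This gives no sign of a shift shared by replicate number, but it cannot show whether samples were prepared in pairs. With the replicate block, 4 factors were called in each comparison. The genes called were then 3264, 1459 and 2478, against 2912, 1184 and 2148 without the block. The causes of these shifts were not tested. With 2 libraries per group, the spread rests on few values.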
